A study of Homo sapiens with 12 samples.

Results

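The end joining and PARP genes are 10 genes: XRCC5, XRCC6, PRKDC, LIG4, XRCC4, NHEJ1, DCLRE1C, POLQ, PARP1 and PARP2. They were taken by exact name from 23621 gene rows in the tables of both cell lines, and all 10 were found, with an FPKM above 1 in at least 1 library. FPKM counts fragments relative to transcript length and library size, here rescaled by the authors to spike-in RNA, so it is a level per transcript length. The 12 RNA-seq libraries came from KURAMOCHI (Ku) and COV362 (Cov), human ovarian cancer cell lines that were not transduced with any construct. Ku cells were grown in RPMI and Cov cells in DMEM, both with serum. Each line was treated for 6 hr with DMSO, the vehicle, or with THZ1 at 50 nM or 250 nM, in 2 replicates per condition that the series describes as biological. THZ1 is a covalent inhibitor of CDK7, a kinase of the general transcription machinery, which also acts on CDK12 and CDK13. Ku is also the name of a DNA repair protein, which is called the Ku heterodimer here to keep it apart from the cell line.

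The lines carried most, not all, of the marker genes of serous ovarian epithelium. PAX8, KRT8 and KRT18 were present in both lines, and PAX8 stood at 140 and 132 FPKM in the Ku DMSO libraries and at 120 and 128 FPKM in the Cov DMSO libraries. WT1 was nearly absent from Cov cells, at 0.565 and 0.741 FPKM in DMSO, and MUC16 from Ku cells, at 0.172 and 0.159 FPKM. MUC16 was low in Cov cells too, at 5.2 and 6.22 FPKM in DMSO. EPCAM was low in Ku cells, at 4.01 and 4.24 FPKM in DMSO, against 150 and 174 FPKM in Cov cells. PTPRC, PECAM1 and DCN, markers of leukocytes, endothelium and fibroblasts, did not exceed 0.378 FPKM in any library, whereas the fibroblast gene COL1A1 reached 3.20 FPKM. Every library has a lowest value shared by many genes, a floor, between 0.0783 and 0.119 FPKM. The median FPKM of the 14251 active genes, those above 1 FPKM in at least 1 library, lay between 10.9 and 14.4 in the DMSO libraries and between 2.84 and 3.32 in the 250 nM libraries.

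End joining reseals broken DNA without a homologous template. XRCC5 and XRCC6 encode the subunits of the Ku heterodimer, which clamps onto a broken end and recruits the kinase DNA-PKcs, the product of PRKDC. DCLRE1C (Artemis) is a nuclease that trims ends, and LIG4, XRCC4 and NHEJ1 (XLF) form the ligation complex. POLQ is the polymerase of the alternative, microhomology-mediated pathway. PARP1 and PARP2 sense DNA breaks and build poly(ADP-ribose) on themselves and on nearby proteins, and they are the targets of the PARP inhibitors used in ovarian cancer.

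The 10 genes lie on 9 chromosomes. In the GENCODE annotation lifted to hg19, the build of the alignments, XRCC5 (ENSG00000079246) is at chromosome 2, 216972187 to 217071026, on the plus strand, and NHEJ1 (ENSG00000187736) lies on the same chromosome at 219934077 to 220025591, on the minus strand. XRCC6 (ENSG00000196419) is at chromosome 22, 42017167 to 42060052, plus strand. LIG4 (ENSG00000174405) is at chromosome 13, 108859787 to 108870716, minus strand, and XRCC4 (ENSG00000152422) at chromosome 5, 82373317 to 82649606, plus strand. DCLRE1C (ENSG00000152457) is at chromosome 10, 14939358 to 14996431, minus strand, and POLQ (ENSG00000051341) at chromosome 3, 121150278 to 121264835, minus strand.

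Promoters of 8 of the 10 genes could be matched to RefSeq (GRCh38.p14), and the promoters of XRCC5 and PRKDC were not analysed here. The 250 bases before the start of 3 genes are printed because these genes mark the ends of the response described below: PARP2 had the largest fall in log2(FPKM + 1) over both lines at 250 nM, although LIG4 fell more in mean FPKM, XRCC6 had the smallest difference on both measures, and PARP1 is the partner of PARP2. Capitals mark the GC box GGGCGG and the CCAAT box on either strand. PARP1 is shown on the minus strand, at chr1:226408094-226408343, PARP2 on the plus strand, at chr14:20343385-20343634, and XRCC6 on the plus strand, at chr22:41621045-41621294, each written 5′ to 3′ along its gene.
PARP1: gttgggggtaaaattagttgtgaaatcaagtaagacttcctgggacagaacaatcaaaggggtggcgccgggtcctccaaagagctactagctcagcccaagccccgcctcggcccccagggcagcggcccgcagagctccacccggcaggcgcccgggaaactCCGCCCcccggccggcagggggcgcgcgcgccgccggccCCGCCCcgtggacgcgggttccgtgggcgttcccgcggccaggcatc
PARP2: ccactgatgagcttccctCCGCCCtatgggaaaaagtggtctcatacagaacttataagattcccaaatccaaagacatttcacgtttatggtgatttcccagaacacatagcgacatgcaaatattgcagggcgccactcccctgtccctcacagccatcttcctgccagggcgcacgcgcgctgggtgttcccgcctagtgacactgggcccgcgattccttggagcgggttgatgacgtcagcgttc
XRCC6: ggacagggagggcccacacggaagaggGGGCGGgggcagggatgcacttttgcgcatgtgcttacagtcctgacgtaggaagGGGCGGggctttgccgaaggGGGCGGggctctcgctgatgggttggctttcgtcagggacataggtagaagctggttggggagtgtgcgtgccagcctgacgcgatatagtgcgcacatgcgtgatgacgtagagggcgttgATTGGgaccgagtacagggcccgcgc

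The PARP2 stretch holds 1 GC box, the PARP1 stretch 2, and the XRCC6 stretch 3 with 1 CCAAT box. Over the longer window from 250 bases before to 50 after the start, GGGCGG on either strand was found in 8 of 8 members with an entry and in 48.3% of 27305 genes. CCAAT or its reverse complement was in 4 of 8 members, namely XRCC6, LIG4, XRCC4 and DCLRE1C, against 39.7% of genes. TATAAA, read on both strands, was in DCLRE1C and in 14.0% of genes. The E-box CACGTG, its own reverse complement, was in 0 of 8 members and in 8.77% of genes. None of these motifs contains another, and a match is a description of these letters only.

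In the DMSO libraries the levels of the 10 genes spread widely, and the same 4 genes led in both lines. XRCC6 had the highest level, followed by XRCC5, PARP1, PRKDC, PARP2 and NHEJ1, and no neighbours among these 6 overlapped between replicates. Together XRCC5, XRCC6, PARP1 and PRKDC made up 91.9% and 92.1% of the summed FPKM of the 10 genes in the Ku DMSO libraries and 93.1% and 93.6% in the Cov DMSO libraries. Below NHEJ1 the order was XRCC4, DCLRE1C, LIG4 and POLQ in Ku cells, where the last 3 overlapped as neighbours. In Cov cells it was POLQ, XRCC4, DCLRE1C and LIG4, where POLQ and XRCC4 overlapped. DMSO means ran from 5.32 ± 0.779 FPKM (SD, n = 2) for POLQ to 338.3 ± 28.5 FPKM for XRCC6 in Ku cells, and from 2.98 ± 0.0936 FPKM for LIG4 to 431.6 ± 36.6 FPKM for XRCC6 in Cov cells.

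At 250 nM the first 5 places of the order were the same in both lines. Below PARP2 the Ku order was XRCC4, NHEJ1, POLQ, DCLRE1C and LIG4, with overlap between XRCC4 and NHEJ1 and between DCLRE1C and LIG4. In Cov cells PARP2 and NHEJ1 now overlapped, at means of 4.86 and 4.71 FPKM, as did POLQ and XRCC4. The share of the 4 abundant genes in the summed FPKM was higher in every 250 nM library than in every DMSO library of the same line, at 97.4% and 97.1% in Ku cells and 96.8% and 96.8% in Cov cells. This share is taken within a library and does not depend on the scale between libraries.

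**Figure D1:**
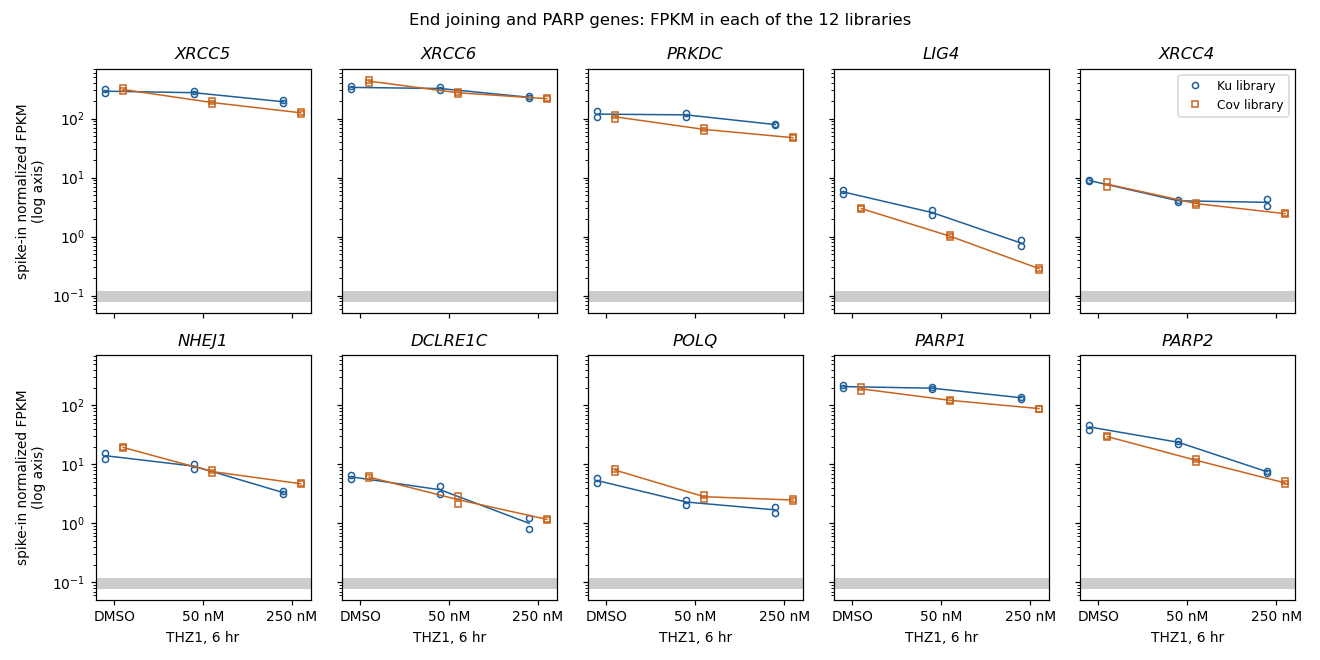
Spike-in normalized FPKM (log axis) of each gene in the 12 libraries, by THZ1 treatment. Circles are Ku libraries and squares Cov libraries, lines join the means of 2 replicates, and the grey band spans the lowest shared values of the libraries. XRCC5, XRCC6, PRKDC and PARP1 stay between 46.8 and 457.4 FPKM in all libraries, whereas LIG4 ends at 0.679 and 0.868 FPKM in Ku cells and 0.298 and 0.273 FPKM in Cov cells.

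The first question was how far each gene changed with THZ1. Fold changes were tested with limma on log2(FPKM + 1), fitted to the 6 libraries of a line. Calls required both an adjusted p below 0.001 and a change of more than 0.5 log2 units. The calls rely on a spread that limma shares across genes, because for 1 gene alone the smallest two-sided p of an exact permutation of 2 and 2 libraries is 0.33. Adding 1 to FPKM understates the change of genes at low levels. RNA amounts were matched to cell counts before the spike-ins were added, so the spike-in scale refers to counted cells. A bulk value averages over these cells, and fewer expressing cells and less RNA per cell cannot be told apart. All levels and fold changes below are on the spike-in scale unless another scale is named. Both other scales rescale the libraries without the spike-ins, to an equal median FPKM over active genes or by median-of-ratios size factors, and where a pair of values is given for them it is in this order.

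In Ku cells at 250 nM, 7 of the 10 genes were called lower than DMSO, against 68.6% of active genes, and none was called higher. The 7 were LIG4, XRCC4, NHEJ1, DCLRE1C, POLQ, PARP1 and PARP2, and the direction of XRCC4, POLQ and PARP1 flipped on at least 1 of 2 scales that do not use the spike-ins. With a pseudocount of 0.1 in place of 1, XRCC5 and XRCC6 were also called lower (limma adjusted p = 0.000909 and 0.000782). As fitted, XRCC5, XRCC6 and PRKDC did not pass the adjusted p, although both of their treated libraries lay below both DMSO libraries, as they did for all 10 genes and for 95.9% of active genes. The median log2 fold change of the 10 genes was -1.14, beside -1.11 for all active genes, so as a group they lay at the middle of the table. At an unadjusted p under 0.05, 10 of 10 genes were lower, as were 89.6% of active genes, and 0 higher. The count of 7 was 3 without DMSO replicate 1, 3 without 250 nM replicate 1 and 4 without 250 nM replicate 2. In Cov cells at 250 nM, 10 of 10 genes were called lower and 0 higher, against 84.0% of active genes called lower. Their median was -1.35, beside -1.31 for all active genes. At equal median FPKM 7 of the 10 had the opposite sign, and the median of all active genes was also positive there, at 0.38.

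At 50 nM the counts in the lines were far apart, although a difference between lines was not tested because their tables were normalized separately. In Ku cells 0 of 10 genes were called by limma, against 11.3% of active genes called lower. At an unadjusted p under 0.05, 6 of 10 Ku genes were lower, against 61.0% of active genes, and 0 were higher. Both treated libraries lay below both DMSO libraries for 6 of 10, against 75.8% of active genes. The median of the 10 genes was -0.58, beside -0.40 for all active genes. In Cov cells 10 of 10 genes were called lower at 50 nM, against 70.5% of active genes, with a median of -0.95 beside -0.85. On the scales without the spike-ins, 19 of 14251 active genes were called lower at equal median FPKM and 110 with median-of-ratios scaling. The median of all active genes at equal median FPKM was 0.15. On both scales 0 of the 10 genes were called lower and 0 higher, and 5 had the opposite sign at equal median FPKM. The Cov count was 4 without DMSO replicate 2 and 6 without 50 nM replicate 1.

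The doses were also compared directly. From 50 nM to 250 nM, NHEJ1 and PARP2 were called lower in Ku cells, 2 of 10 genes against 36.0% of active genes. LIG4 and PARP2 were called lower in Cov cells, 2 of 10 against 24.4%. No member was called higher between the doses in either line on any of the 3 scales, although at equal median FPKM none was called lower either and 6 of 10 were positive in Ku and 7 in Cov cells. With median-of-ratios scaling 6 were positive in each line, and 1 was called lower in Ku and 0 in Cov cells. Over all 14251 active genes, equal median FPKM gave 970 lower with 1034 higher in Ku and 751 with 487 in Cov cells. The medians were 0.29 and 0.25. Median-of-ratios scaling gave 1580 lower with 198 higher in Ku and 1129 with 71 in Cov cells, at medians of 0.03 and 0.04. On the spike-in scale 0 members were higher at an unadjusted p under 0.05. At that p 8 of 10 members were lower in Ku cells and 9 of 10 in Cov cells, against 73.9% and 63.9% of active genes. The Ku count fell to 1 or 0 whichever Ku library was left out, and the Cov count was 1 without either 250 nM library.

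**Figure D2:**
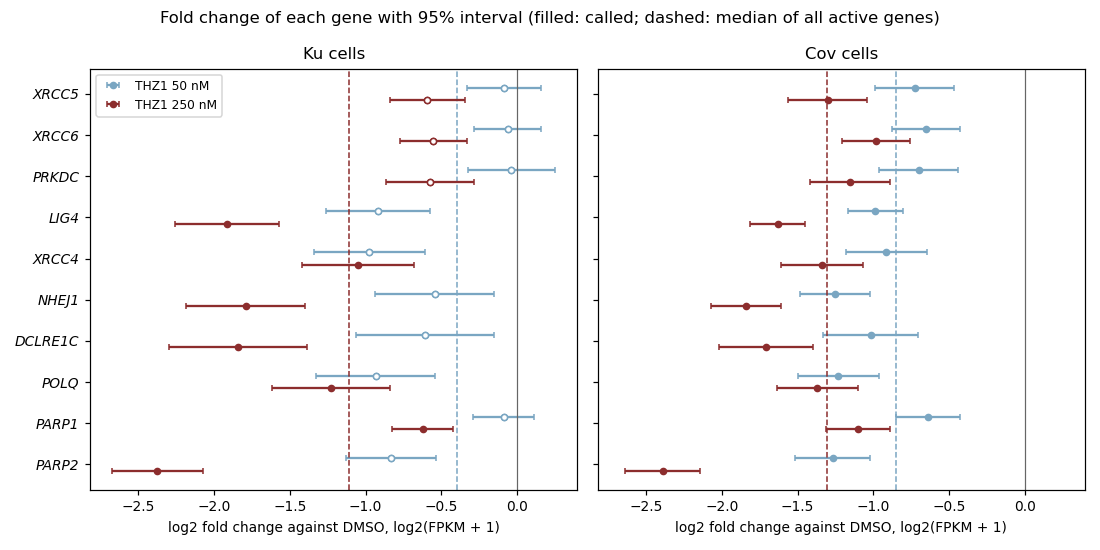
Log2 fold change of each gene against DMSO at 50 nM (blue) and 250 nM (red), in log2(FPKM + 1) on the spike-in scale, with 95% intervals from limma. Filled points were called and dashed lines are medians of all active genes. In Ku cells XRCC5, XRCC6, PRKDC and PARP1 lie right of the 250 nM median line, and PARP2 lies farthest left in both lines at 250 nM. On scales that do not use the spike-ins those 4 genes have the opposite sign.

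The end-binding genes were among the most abundant members, and their differences were among the smallest in Ku cells. XRCC5 stood at 312.8 and 271.3 FPKM in DMSO, 289.1 and 260.8 FPKM at 50 nM, and 203.8 and 182.6 FPKM at 250 nM in Ku cells. The DMSO and 50 nM libraries overlapped, and the 250 nM libraries lay below both groups. The log2 fold change was -0.59 at 250 nM (95% interval -0.84 to -0.35, limma adjusted p = 0.00152) and -0.09 at 50 nM, and without the spike-ins XRCC5 was called higher at 250 nM, at 1.39 and 0.86. Cov cells had XRCC5 at 290.5 and 331.2 FPKM in DMSO, 174.8 and 200.2 FPKM at 50 nM, and 131.1 and 119.6 FPKM at 250 nM, without overlap between any of the groups. It fell by 1.30 on the log2 scale at 250 nM (SE 0.109, limma adjusted p = 1.55e-05), close to the median of all active genes, and the sign was opposite on scales without the spike-ins.

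XRCC6, the other subunit of the heterodimer, had the highest level in every library. In Ku cells it stood at 358.4 and 318.1 FPKM in DMSO, 340.8 and 306.8 FPKM at 50 nM, and 239.1 and 221.0 FPKM at 250 nM, again with overlap between DMSO and 50 nM only. Its log2 fold change at 250 nM was -0.55 (95% interval -0.77 to -0.33, limma adjusted p = 0.00126), whereas XRCC6 was called higher without the spike-ins, at 1.43 and 0.90. Cov cells had XRCC6 at 405.7 and 457.4 FPKM in DMSO, 264.1 and 284.3 FPKM at 50 nM, and 223.8 and 211.7 FPKM at 250 nM. The groups did not overlap, and 250 nM left 50.5% of the DMSO mean. The fall of 0.98 on the log2 scale had the opposite sign without the spike-ins, where XRCC6 was called higher.

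The ratio of XRCC5 to XRCC6 within a library compares the partner subunits free of any scale between libraries. In Ku cells it was 0.873 and 0.853 in DMSO, 0.848 and 0.850 at 50 nM, and 0.852 and 0.826 at 250 nM, so that the treated libraries lay only just below the untreated ones. In Cov cells it was 0.716 and 0.724 in DMSO, 0.662 and 0.704 at 50 nM, and 0.586 and 0.565 at 250 nM, with each dose below the one before.

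PRKDC encodes the catalytic kinase that the Ku heterodimer recruits, and its gene on chromosome 8 spans 187 kb with 87 exons in its main transcript. In Ku cells it stood at 132.0 and 106.4 FPKM in DMSO, 123.2 and 108.2 FPKM at 50 nM, and 80.9 and 77.6 FPKM at 250 nM. The 50 nM libraries lay inside the range of the DMSO libraries. At 250 nM the log2 fold change was -0.58 (95% interval -0.86 to -0.29), with a limma adjusted p of 0.00371, and without the spike-ins PRKDC was called higher, at 1.39 and 0.87. In Cov cells PRKDC stood at 98.9 and 115.5 FPKM in DMSO, 60.7 and 70.5 FPKM at 50 nM, and 48.2 and 46.8 FPKM at 250 nM. The groups were apart, and PRKDC fell by 1.15 on the log2 scale at 250 nM, with the opposite sign on scales without the spike-ins.

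DCLRE1C, the Artemis nuclease, had low levels and lost most of them. In Ku cells it stood at 6.69 and 5.62 FPKM in DMSO, 4.28 and 3.15 FPKM at 50 nM, and 0.795 and 1.21 FPKM at 250 nM. Cov cells had DCLRE1C at 5.85 and 6.33 FPKM in DMSO, 2.10 and 2.95 FPKM at 50 nM, and 1.20 and 1.15 FPKM at 250 nM. No groups overlapped in either line, and the mean at 250 nM was 16.3% of DMSO in Ku and 19.2% in Cov cells. The log2 fold changes at 250 nM were -1.84 (SE 0.185, limma adjusted p = 0.000143) and -1.71 (SE 0.131, limma adjusted p = 1.01e-05). Neither call held on scales without the spike-ins, with values of -0.54 and -0.26 at equal median FPKM and -0.84 and -0.55 with median-of-ratios scaling. The Ku call was lost without DMSO replicate 1 (limma adjusted p = 0.00123) or 250 nM replicate 1 (0.00135). DCLRE1C shares 6957 bp of its locus with SUV39H2 on the opposite strand, a gene that reached 19.3 FPKM. The strand setting of the counting is not given in the sources used here, so reads of the pair may not have been told apart.

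The genes of the ligation complex had log2 fold changes from -1.92 to -1.05 at 250 nM in Ku cells, and from -1.84 to -1.34 in Cov cells, with the sign of XRCC4 in both lines and of NHEJ1 in Cov cells opposite at equal median FPKM. LIG4, the ligase itself, stood at 6.16 and 5.24 FPKM in DMSO, 2.78 and 2.31 FPKM at 50 nM, and 0.679 and 0.868 FPKM at 250 nM in Ku cells. Cov cells had LIG4 at 2.92 and 3.05 FPKM in DMSO, 1.06 and 0.965 FPKM at 50 nM, and 0.298 and 0.273 FPKM at 250 nM. Each dose lay below the one before in both lines, and the lowest values were still above the floors of those Cov libraries, 0.0943 and 0.105 FPKM. On mean FPKM the level at 250 nM was 7.37-fold lower in Ku cells and 10.5-fold lower in Cov cells, which no other member exceeded. On the log2(FPKM + 1) scale LIG4 fell by 1.92 in Ku cells (SE 0.139, limma adjusted p = 3.98e-05) and by 1.63 in Cov cells (SE 0.0760, limma adjusted p = 1.3e-06), less than PARP2, because adding 1 compresses levels near 1 FPKM. LIG4 values at equal median FPKM were -0.73 in Ku cells, where the call was lost (limma adjusted p = 0.00127), and -0.85 in Cov cells. LIG4 is a short gene, 10.9 kb with 3 exons in its main transcript.

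XRCC4, the scaffold that holds the ligase, reached its low level at the smaller dose in Ku cells. There it stood at 8.93 and 8.86 FPKM in DMSO, 4.20 and 3.88 FPKM at 50 nM, and 4.34 and 3.27 FPKM at 250 nM. The 50 nM and 250 nM libraries overlapped, and 95.4% of the difference in mean FPKM between DMSO and 250 nM was present at 50 nM. XRCC4 was called lower at 250 nM (log2 fold change -1.05, limma adjusted p = 0.000694), but this call was lost when any 1 of the 6 Ku libraries was left out, at limma adjusted p values from 0.00181 to 0.00573, and its sign flipped without the spike-ins. In Cov cells XRCC4 stood at 7.04 and 8.43 FPKM in DMSO, 3.48 and 3.76 FPKM at 50 nM, and 2.41 and 2.48 FPKM at 250 nM, with a step at each dose. XRCC4 fell by 1.34 at 250 nM in Cov cells (log2 scale, limma adjusted p = 1.59e-05), and the sign was opposite after scaling to equal medians. The XRCC4 locus spans 276 kb, the longest of the 10, and overlaps TMEM167A on the opposite strand by 366 bp.

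NHEJ1, the XRCC4-like factor, stood at 15.5 and 12.6 FPKM in DMSO, 10.4 and 8.31 FPKM at 50 nM, and 3.15 and 3.53 FPKM at 250 nM in Ku cells. The Cov libraries had NHEJ1 at 19.2 and 19.6 FPKM in DMSO, 7.14 and 8.02 FPKM at 50 nM, and 4.82 and 4.59 FPKM at 250 nM. Its groups never overlapped, and about the same share of the DMSO mean was left at 250 nM, 23.7% in Ku and 24.2% in Cov cells. Most of the Ku difference came between the doses, with 44.1% of it present at 50 nM, against 80.5% in Cov cells. The log2 fold change at 250 nM was -1.79 in Ku cells (SE 0.160, limma adjusted p = 8.76e-05) and -1.84 in Cov cells (SE 0.0971, limma adjusted p = 1.97e-06). Neither call held on scales without the spike-ins, where the values were -0.08 in Ku and 0.03 in Cov cells at equal median FPKM and -0.54 and -0.39 with median-of-ratios scaling. The annotation places a gene with no row in the tables, ENSG00000280537, over 85541 bp of the NHEJ1 locus on the same strand.

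Within the ligation complex the genes did not keep their proportions. The ratio of XRCC4 to LIG4 was 1.45 and 1.69 in the Ku DMSO libraries, 1.51 and 1.68 at 50 nM, and 6.39 and 3.76 at 250 nM. In Cov cells it was 2.41 and 2.76 in DMSO, 3.28 and 3.90 at 50 nM, and 8.08 and 9.07 at 250 nM. Both lines therefore had more XRCC4 per LIG4 at 250 nM in every library, and Cov cells also at 50 nM. The ratio of NHEJ1 to XRCC4 in Ku cells was 1.74 and 1.42 in DMSO, 2.47 and 2.14 at 50 nM, and 0.725 and 1.08 at 250 nM, above DMSO at the lower dose and below it at the higher one. In Cov cells that ratio was 2.73 and 2.33 in DMSO, 2.05 and 2.13 at 50 nM, and 2.0 and 1.86 at 250 nM. With 2 libraries per group these ratios are given without a test.

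**Figure D3:**
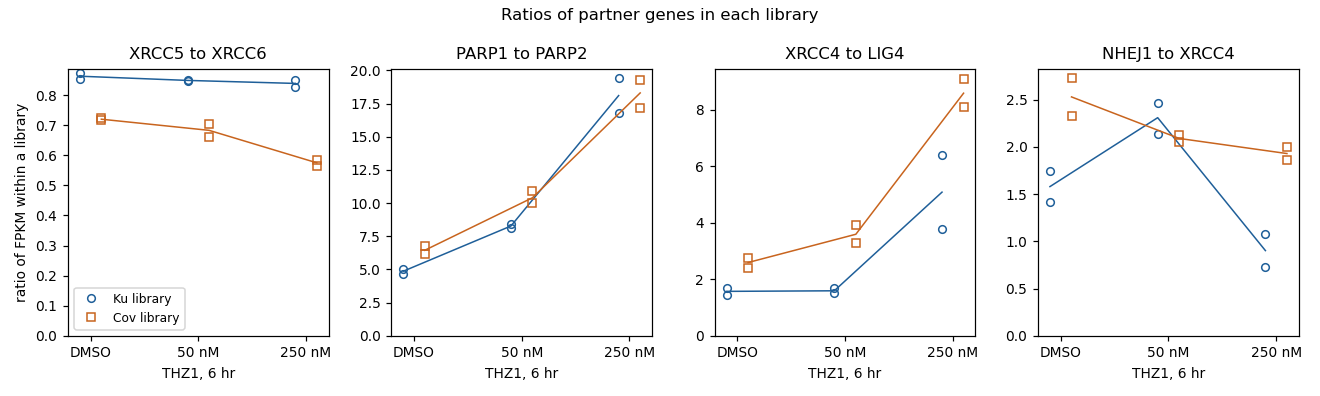
Ratios of FPKM between partner genes within each library, by THZ1 treatment, with circles for Ku and squares for Cov libraries and lines through the means of 2 replicates. Every axis starts at 0. PARP1 to PARP2 goes from 4.67 and 5.05 to 19.4 and 16.8 in Ku cells and from 6.13 and 6.75 to 17.2 and 19.3 in Cov cells, and XRCC4 to LIG4 is highest at 250 nM in both lines.

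POLQ, the polymerase of the alternative pathway, reached most of its difference at 50 nM in both lines. In Ku cells it stood at 5.87 and 4.77 FPKM in DMSO, 2.54 and 2.07 FPKM at 50 nM, and 1.48 and 1.91 FPKM at 250 nM. The Cov libraries had POLQ at 7.54 and 8.49 FPKM in DMSO, 2.62 and 3.06 FPKM at 50 nM, and 2.61 and 2.37 FPKM at 250 nM. On the spike-in scale 83.2% of the difference in Ku and 93.7% in Cov cells was present at 50 nM. POLQ had a log2 fold change at 250 nM of -1.23 in Ku cells (SE 0.159, limma adjusted p = 0.00045) and -1.37 in Cov cells (SE 0.112, limma adjusted p = 1.4e-05), and both changed sign after scaling to equal medians. Between the doses it was -0.29 (95% interval -0.69 to 0.10) in Ku cells and -0.14 (95% interval -0.40 to 0.13) in Cov cells, and on scales without the spike-ins it was positive, at 0.69 and 0.32 in Ku and 0.59 and 0.31 in Cov cells. The Ku call at 250 nM was lost when any 1 DMSO or 250 nM library was left out, at limma adjusted p values from 0.00106 to 0.00421.

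PARP1 and PARP2 share their role as break sensors, but at 250 nM the 95% interval of the PARP2 fold change lay below that of PARP1 in both lines. PARP1 stood at 221.0 and 197.1 FPKM in DMSO, 204.3 and 188.3 FPKM at 50 nM, and 139.4 and 130.9 FPKM at 250 nM in Ku cells. PARP1 in Cov cells stood at 179.2 and 203.3 FPKM in DMSO, 119.6 and 124.9 FPKM at 50 nM, and 88.7 and 88.5 FPKM at 250 nM. The only overlap was between DMSO and 50 nM in Ku cells, and 64.6% of the DMSO mean was left at 250 nM in Ku and 46.3% in Cov cells. PARP1 fell by 0.62 on the log2 scale in Ku cells (SE 0.0810, limma adjusted p = 0.000451), and its log2 fold change was -1.10 in Cov cells (SE 0.0885, limma adjusted p = 1.27e-05), and it was called higher on scales without the spike-ins in both lines. The Ku call was lost without DMSO replicate 1 (limma adjusted p = 0.00247), 250 nM replicate 1 (0.00227) or 250 nM replicate 2 (0.00386).

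PARP2 stood at 47.4 and 39.0 FPKM in DMSO, 25.2 and 22.3 FPKM at 50 nM, and 7.19 and 7.80 FPKM at 250 nM in Ku cells. PARP2 in Cov cells stood at 29.2 and 30.1 FPKM in DMSO, 11.0 and 12.5 FPKM at 50 nM, and 5.14 and 4.58 FPKM at 250 nM. It stepped down at each dose without overlap, and the 250 nM mean was 17.3% of DMSO in Ku and 16.4% in Cov cells. PARP2 fell by 2.37 on the log2 scale in Ku cells (95% interval -2.67 to -2.08, limma adjusted p = 1.41e-05) and by 2.39 in Cov cells (95% interval -2.64 to -2.14, limma adjusted p = 1.09e-06). Its value at equal median FPKM was -0.52 in each line, without a call in Cov cells (limma adjusted p = 0.00126). Of all active genes, 10.1% had a larger fall in Ku and 11.0% in Cov cells. PARP2 was the member called lower between the doses in both lines, with log2 fold changes of -1.54 in Ku and -1.12 in Cov cells, although the Ku call was lost without any 1 of the 4 treated Ku libraries except 50 nM replicate 2. At equal median FPKM this call was lost in both lines (-0.38 and -0.41), and with median-of-ratios scaling in Cov cells (-0.63).

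The ratio of PARP1 to PARP2 within a library was higher at each dose than at the one before, without overlap. In Ku cells it was 4.67 and 5.05 in DMSO, 8.12 and 8.43 at 50 nM, and 19.4 and 16.8 at 250 nM. In Cov cells it was 6.13 and 6.75 in DMSO, 10.9 and 9.97 at 50 nM, and 17.2 and 19.3 at 250 nM. The DMSO ratios of the lines differed by more than their replicates did, whereas the 250 nM ratios lay in overlapping ranges. PARP2 is a compact gene of 14.3 kb on hg19 chromosome 14 (20811774 to 20826063, plus strand, 16 exons in its main transcript), and PARP1 spans 47.9 kb on chromosome 1 (226547911 to 226595855, minus strand, 23 exons).

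**Figure D4:**
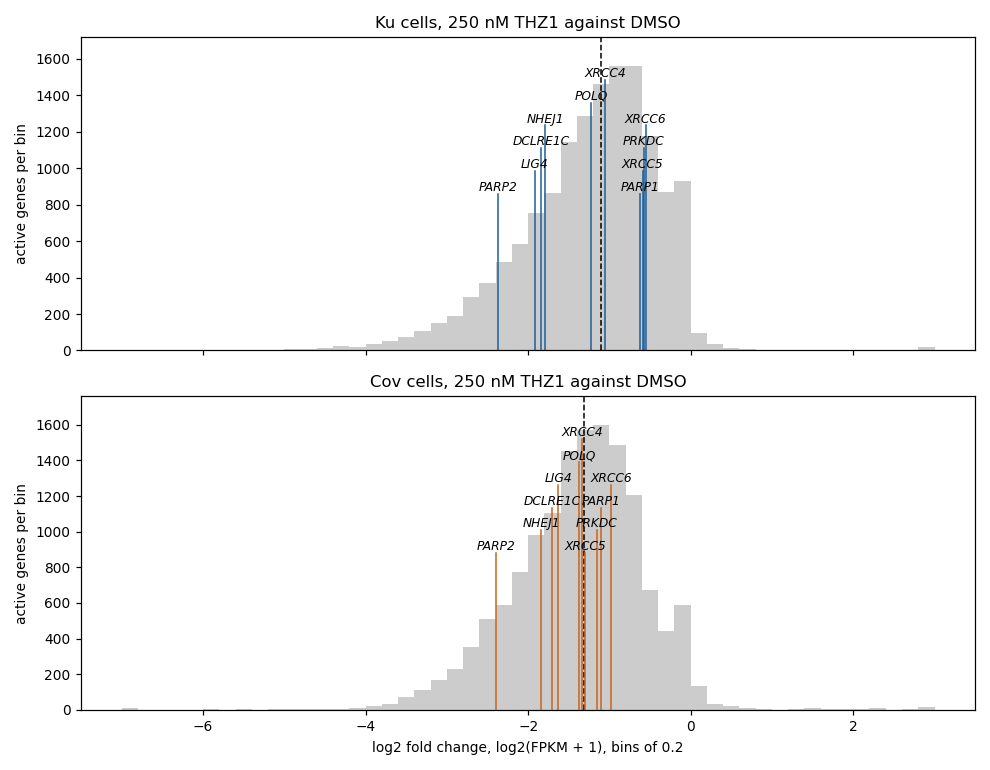
Log2 fold changes of the 14251 active genes at 250 nM against DMSO in bins of 0.2 (grey, with all values beyond the axis in the end bins), with the 10 genes as vertical lines and the median of all active genes dashed, on the spike-in scale. PARP2 lies on the left flank in both lines. XRCC5, XRCC6, PRKDC and PARP1 lie together at -0.62 to -0.55 in Ku cells, right of the median, and between -1.30 and -0.98 in Cov cells; on other scales these 4 have the opposite sign.

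The dose steps of the 10 genes differed by gene in Ku cells. On the spike-in scale all 10 stepped down without overlap in Cov cells, from DMSO to 50 nM and again to 250 nM, an order found for 73.8% of active genes. In Ku cells 5 of 10 had this order, against 66.7% of active genes, and XRCC5, XRCC6, PRKDC, XRCC4 and PARP1 did not. For XRCC4 the doses overlapped with each other, and for the other 4 the 50 nM libraries overlapped with DMSO. In Ku cells 17.3% of the difference in mean FPKM between DMSO and 250 nM was present at 50 nM for XRCC5, 13.4% for XRCC6, 8.76% for PRKDC and 17.3% for PARP1. In Cov cells this share lay between 66.5% and 93.7% for all 10 genes.

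Level and fold change went together among the 10 genes with the opposite sign to that across the table. Across the 10 genes, the Spearman correlation of the DMSO level with the log2 fold change at 250 nM was 0.69 in Ku and 0.64 in the Cov line, so that more abundant members had smaller falls (Pearson's r 0.68 and 0.51). Across 14247 active genes it was -0.36 and -0.42 (Pearson's r -0.30 and -0.37). Gene span gave 0.43 and 0.21 over the members (Pearson's r 0.57 and 0.49) and 0.01 and -0.09 over 12622 active genes with a span (Pearson's r 0.04 and -0.07). The points are genes of the same libraries, so they are not independent, and no p is given. The DMSO level enters both axes of the correlation with level. Adding 1 to FPKM also limits how far genes at low levels can fall, so the signs with level cannot be read free of this limit.

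The direction of these changes depended on the spike-in scale, while the order of the genes within a library did not. With all libraries set to an equal median FPKM over the active genes, XRCC5, XRCC6, PRKDC and PARP1 were called higher at 250 nM in both lines, by 1.35 to 1.43 on the log2 scale in Ku and by 0.77 to 1.09 in Cov cells. This scaling moved the median of all active genes to 0.34 in Ku and 0.38 in Cov cells, so these 4 also lay above the common shift. PARP2 was still called lower in Ku cells (-0.52), and LIG4 in Cov cells (-0.85). With median-of-ratios scaling, where the median of all active genes was close to 0 in Ku and 0.01 in Cov cells, PARP2 and LIG4 were called lower in both lines, the same 4 genes were called higher in Ku cells, and PARP1 and XRCC6 in Cov cells. Over all active genes, 1682 were called lower and 3920 higher at equal median FPKM in Ku cells at 250 nM, and 2708 and 1577 with median-of-ratios scaling. For Cov cells these counts were 1619 and 3811, and 2694 and 1221.

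**Figure D5:**
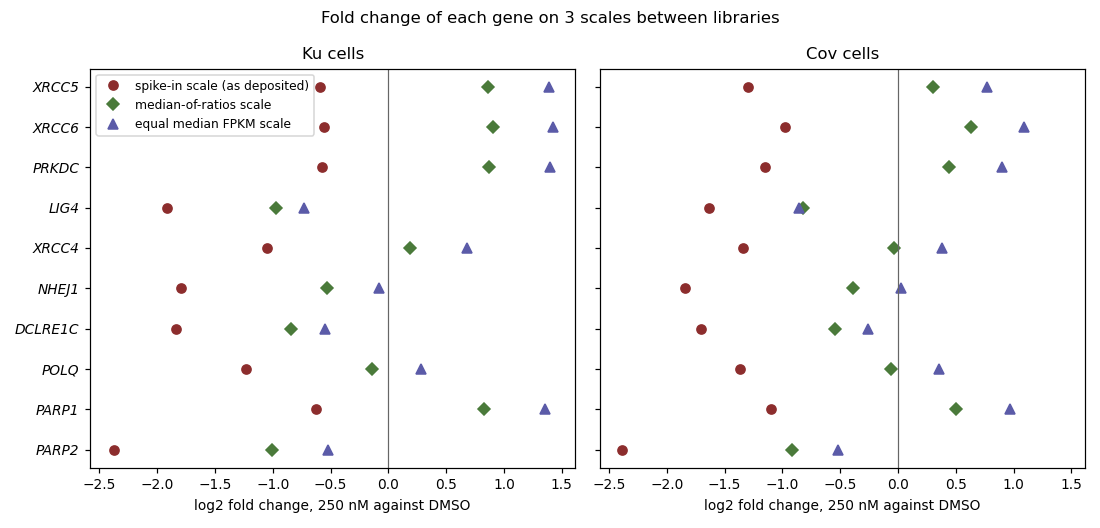
Log2 fold change of each gene at 250 nM against DMSO on 3 scales: spike-in as deposited (circles), median-of-ratios (diamonds) and equal median FPKM (triangles). XRCC5, XRCC6, PRKDC and PARP1 change sign between the spike-in scale and the other scales in both lines, whereas PARP2, LIG4 and DCLRE1C stay below 0 on all 3. At equal median FPKM only PARP2 in Ku and LIG4 in Cov cells are called lower.

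Other genes of the pathways, from lists written out from general knowledge, were mostly lower too on the spike-in scale, but not at equal median FPKM. A list of other end joining factors (end processing, pathway choice and alternative end joining) held 29 names. PAXX, CYREN and MRE11 were not in the tables, but the same genes were, as C9orf142, C7orf49 and MRE11A. Of the 29 names, 26 were in the tables and 25 were active. Of these, 23 were called lower in Ku cells at 250 nM and 25 in Cov cells, against 68.6% and 84.0% of active genes, with medians of -1.68 and -1.70 beside -1.11 and -1.31. At 50 nM, 8 were called lower in Ku and 25 in Cov cells, against 11.3% and 70.5% of active genes. Between the doses the counts were 11 and 5, against 36.0% and 24.4%. None was called higher on the spike-in scale in any comparison, and 0 were higher at an unadjusted p under 0.05. APLF and RBBP8, the exceptions in Ku cells at 250 nM and named after their values were seen, had log2 fold changes of -0.66 (limma adjusted p = 0.0071) and -1.11 (limma adjusted p = 0.00127). At equal median FPKM, 4 of the 25 were called lower and 5 higher at 250 nM in each line, and with median-of-ratios scaling 9 were lower with 2 higher for Ku and 6 with 1 for Cov. Few calls held without the spike-ins at 50 nM. There equal median FPKM left 1 lower in Ku and 0 in Cov cells and median-of-ratios scaling left 2 and 1, with 0 higher. Over all 14251 active genes, 78 and 19 were lower at 50 nM at equal median FPKM and 388 and 110 with median-of-ratios scaling. Between the doses equal median FPKM gave 1 lower with 2 higher for Ku and 1 with 0 for Cov. Median-of-ratios scaling gave 2 with 1 and 2 with 0. The counts over all active genes between the doses are those given above for the direct comparison.

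The largest fall in this list was that of C7orf49, also known as CYREN, an inhibitor of end joining that binds the Ku heterodimer. It stood at 56.9 and 49.8 FPKM in the Ku DMSO libraries and at 1.84 and 1.76 FPKM at 250 nM, and at 78.8 and 88.9 FPKM and 5.22 and 5.77 FPKM in Cov cells. It fell by 4.27 in Ku cells (SE 0.115, limma adjusted p = 6.52e-06) and by 3.71 in Cov cells (SE 0.0974, limma adjusted p = 8.16e-07) on the log2 scale, more than any of the 10 members, and it was called lower on all 3 scales in both lines.

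A list of other PARP family members and ADP-ribose hydrolases or readers held 26 names. ADPRS, HPF1, TARG1 and C6orf130 were not in the tables, but the same genes were, as ADPRHL2, C4orf27 and OARD1. Of the 26 names, 22 were in the tables and 21 were active. At 250 nM, 15 were called lower in Ku and 19 in Cov cells, against 68.6% and 84.0% of active genes, with medians of -1.36 and -1.70 beside -1.11 and -1.31, whereas equal median FPKM gave 2 lower with 5 higher for Ku and 4 with 6 for Cov. Median-of-ratios scaling gave 2 lower with 4 higher for Ku and 6 with 2 for Cov. At 50 nM the counts were 2 and 18, against 11.3% and 70.5% of active genes, and between the doses 5 and 6, against 36.0% and 24.4%, with none called higher on the spike-in scale and 0 higher at an unadjusted p under 0.05 in any comparison. Without the spike-ins 0 were called lower at 50 nM on either scale, with 0 higher for Ku and 1 for Cov. Between the doses 2 were lower with 3 higher for Ku and 2 with 2 for Cov at equal median FPKM. With median-of-ratios scaling 3 were lower with 0 higher in each line. The counts over all active genes on these scales are those given above, as for the end joining list. ADPRHL2, or ARH3, the hydrolase that removes ADP-ribose from serine, had the largest fall of this list. It stood at 43.8 and 39.1 FPKM in the Ku DMSO libraries and 2.82 and 2.62 FPKM at 250 nM, and it fell by 3.51 in Ku cells (SE 0.104) and by 3.22 in Cov cells (SE 0.112) on the log2 scale, with limma adjusted p values of 6.52e-06 and 8.16e-07, and it too was called lower on all 3 scales.

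The smallest differences in both lists at 250 nM were those of MACROD1 and MACROD2, macrodomain hydrolases of ADP-ribose, which were not called in either line on the spike-in scale. Without the spike-ins both had the opposite sign, and MACROD1 was called higher in both lines (1.43 and 0.89 in Ku, 1.49 and 1.02 in the Cov line), as was MACROD2 in Ku cells at equal median FPKM (1.16). MACROD1 stood at 11.8 and 12.4 FPKM in the Ku DMSO libraries and 8.11 and 9.23 FPKM at 250 nM (log2 fold change -0.44, limma adjusted p = 0.00818), and its Cov value was -0.53 (limma adjusted p = 0.00487). MACROD2 stood at 1.88 and 2.10 FPKM in the Ku DMSO libraries and 1.41 and 1.46 FPKM at 250 nM (log2 fold change -0.30). In Cov cells it was below 1 FPKM, at 0.448 and 0.472 FPKM in DMSO and 0.347 and 0.296 FPKM at 250 nM, so it was tested there only through its Ku levels, and its value of -0.14 is compressed by adding 1. The other PARP genes not called in Ku cells at 250 nM, again named after their values were seen, were PARP3 (-0.51), TNKS (-1.02), PARP6 (-0.76) and CHD1L (-0.59), with limma adjusted p values from 0.00114 to 0.0452. DNTT and PARP15 did not exceed 0.13 FPKM in any library and were not tested.

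The active genes whose pattern was most like that of the members at the ends of the range were sought over the 8 treated libraries, as the root mean square difference in log2(FPKM + 1) change from the DMSO mean. For PARP2 they were ESF1, CAMSAP2 and RBM34, with differences of 0.0644, 0.0754 and 0.0844 log2 units. For XRCC6 they were CAPZB, ATP6V0E1 and EXT2, with differences of 0.0439, 0.0446 and 0.0470 log2 units. At 250 nM ESF1 had log2 fold changes of -2.33 in Ku and -2.45 in Cov cells, and CAPZB of -0.56 and -1.02.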

How the data were processed

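Each of the 12 libraries was prepared with a stranded mRNA kit and sequenced as single-end 75 bp reads. The authors matched RNA to cell counts, added ERCC spike-in RNAs, aligned reads to hg19 with HISAT, quantified them with cuffquant and cuffnorm (Cufflinks), and deposited FPKM normalized to the spike-ins, with 23713 rows per line, 92 of them ERCC RNAs. Tool versions and the strand setting are not given in the sources used here. No counts were used, so depth is unknown, and limma took the place of the count-based tool that the study names.

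From these values, genes above 1 FPKM in at least 1 library (14251) were tested on log2(FPKM + 1) with limma 3.58.1 in R 4.3.3 (lmFit, eBayes with a mean-variance trend), two-sided, 1 fit per line, with Benjamini-Hochberg adjustment over all of them. The fit was tested on simulated data. Samples were grouped by their labels. The 10 genes and all lists were chosen with earlier results of these data known, and the lists come from general knowledge. Genes named are the members, the 2 largest and 2 smallest falls at 250 nM per line among both lists, and the 3 genes most like PARP2 and XRCC6. List genes not called at 250 nM in Ku cells were named in addition, after their values were seen. Gene positions come from GENCODE lifted to GRCh37 and promoters from RefSeq (GRCh38.p14). Alternatives were a pseudocount of 0.1, no minimum or a minimum of 10 FPKM, 2 other scalings, 2 groups only, a replicate block, no trend, an adjusted p under 0.05, and each library left out. Other packages were pandas 2.3.3 and matplotlib 3.10.9.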

Additional observations from a re-analysis of the deposited data

How the results depend on the processing

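Over all alternatives, 681 values of single members kept their direction and side of the threshold, 93 were no longer called, 31 became called and 71 changed sign. The cause was not tested, except that other scalings remove the spike-in scale by construction. The number of the 10 genes called lower moved as follows, with smaller changes left out. At an adjusted p under 0.05 it was 6 in Ku cells at 50 nM and 10 at 250 nM, beside 5734 and 11587 of 14251 active genes. Between the doses it was 7 in Ku and 5 in Cov cells, beside 8295 and 5909. Without a minimum FPKM it was 4 in Ku cells at 250 nM and 0 between the doses, beside 8145 and 1901 of 23621 genes. In Cov cells it was then 6 at 50 nM and 1 between the doses, beside 8286 and 2127. With a minimum of 10 FPKM, which leaves 6 members, it was 4 at 250 nM in the Ku line, beside 7740 of 9384 genes. In Cov cells it was then 6 at 50 nM, 6 at 250 nM and 1 between the doses, beside 7539, 8819 and 3395. With a pseudocount of 0.1 it was 9 in Ku cells at 250 nM and 5 between the doses, beside 10205 and 6178 of 14251 active genes. With only the 2 groups compared it was 1 in Ku cells between the doses, beside 4761. At equal median FPKM it was 1 at 250 nM in each line, beside 1682 active genes in Ku and 1619 in Cov cells. It was 0 in Cov cells at 50 nM, beside 19, and 0 between the doses in both lines, beside 970 and 751. With median-of-ratios scaling it was 2 at 250 nM in each line, beside 2708 active genes in Ku and 2694 in Cov cells. It was 0 in Cov cells at 50 nM, beside 110, and between the doses 1 in Ku and 0 in Cov cells, beside 1580 and 1129. With 1 library left out it ranged from 0 to 0 in Ku cells at 50 nM, 3 to 6 at 250 nM and 0 to 1 between the doses, and from 4 to 10, 10 to 10 and 1 to 3 in Cov cells.

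Replicate numbers are shared between conditions. Gene-by-gene deviations of same-numbered libraries did not correlate: values lay between -0.00871 and 0.000345 in Ku cells and between -0.0703 and 0.0282 in Cov cells. A shift common to all genes does not enter these correlations. The summed FPKM was higher in replicate 1 of every Ku condition and in replicate 2 of every Cov condition. XRCC5, XRCC6, PRKDC, XRCC4 and PARP1 were higher in replicate 1 of every Ku condition, the other members only in DMSO and at 50 nM. With the replicate number as a block, the counts called lower were 0, 8 and 3 in Ku cells (50 nM, 250 nM, between the doses) and 6, 10 and 0 in Cov cells. Over all 14251 active genes they were 989, 9485 and 4952 in Ku cells and 7266, 11202 and 1130 in Cov cells. At 250 nM in the Ku line the block added XRCC5, XRCC6 and PRKDC and dropped XRCC4 and POLQ.

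At equal median FPKM the following log2 fold changes were positive. At 50 nM in Ku cells they were 0.11 for NHEJ1, 0.61 for PARP1, 0.66 for PRKDC, 0.62 for XRCC5 and 0.64 for XRCC6. At 250 nM in Ku cells they were 1.35 for PARP1, 0.28 for POLQ, 1.39 for PRKDC, 0.68 for XRCC4, 1.39 for XRCC5 and 1.43 for XRCC6. Between the doses in Ku cells they were 0.74 for PARP1, 0.69 for POLQ, 0.73 for PRKDC, 1.07 for XRCC4, 0.77 for XRCC5 and 0.78 for XRCC6. At 50 nM in Cov cells they were 0.58 for PARP1, 0.51 for PRKDC, 0.12 for XRCC4, 0.49 for XRCC5 and 0.57 for XRCC6. At 250 nM in Cov cells they were 0.030 for NHEJ1, 0.96 for PARP1, 0.35 for POLQ, 0.90 for PRKDC, 0.38 for XRCC4, 0.77 for XRCC5 and 1.09 for XRCC6. Between the doses in Cov cells they were 0.16 for NHEJ1, 0.39 for PARP1, 0.59 for POLQ, 0.39 for PRKDC, 0.26 for XRCC4, 0.27 for XRCC5 and 0.52 for XRCC6.

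With median-of-ratios scaling the positive values at 50 nM in Ku cells were 0.47 for PARP1, 0.52 for PRKDC, 0.47 for XRCC5 and 0.49 for XRCC6. At 250 nM in Ku cells they were 0.83 for PARP1, 0.87 for PRKDC, 0.19 for XRCC4, 0.86 for XRCC5 and 0.90 for XRCC6. Between the doses in Ku cells they were 0.36 for PARP1, 0.32 for POLQ, 0.35 for PRKDC, 0.67 for XRCC4, 0.39 for XRCC5 and 0.41 for XRCC6. In Cov cells they were 0.38 for PARP1, 0.32 for PRKDC, 0.30 for XRCC5 and 0.38 for XRCC6 at 50 nM, and 0.50 for PARP1, 0.44 for PRKDC, 0.31 for XRCC5 and 0.63 for XRCC6 at 250 nM. Between the doses in Cov cells they were 0.12 for PARP1, 0.31 for POLQ, 0.12 for PRKDC, 0.014 for XRCC4, 0.0062 for XRCC5 and 0.25 for XRCC6. With 1 library left out, the Ku value at 50 nM ranged from -0.19 to 0.12 for PRKDC, from -0.19 to 0.017 for XRCC5 and from -0.15 to 0.023 for XRCC6, positive without DMSO replicate 1 for all 3 and without 50 nM replicate 2 for PRKDC (0.055) and XRCC6 (0.013). XRCC4 between the Ku doses ranged from -0.24 to 0.084, positive without 250 nM replicate 2. Depth is unknown, so no counting error can be given.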
